A study of Mus musculus with 12 samples.

Results

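The genes described here are 10 transcription regulators known for their part in endothelial cell identity: Erg, Fli1, Sox7, Sox17, Sox18, Tal1, Gata5, Tbx3, Meis2 and Ldb2. They were chosen by name, as the rows carrying these gene symbols in the 2 deposited count tables, and all 10 were listed in both. The table of dim tdT cells held 17811 genes, the table of bright tdT cells held 17521, and 15768 were in both. The samples were sorted glomerular endothelial cells (GEC) of C57BL/6 mice aged 4 months that carried a TekCre tdTomato reporter. The reporter was active in cells in which Tek-driven Cre had been expressed at any time, and Tek, the angiopoietin receptor, can also be expressed in blood-forming cells. Glomeruli were sieved from renal cortex and digested, and cells were sorted by tdTomato (tdT) signal into a dim and a bright subpopulation. Wild type (WT) mice were compared with Alport syndrome (AS) mice, which were Col4a5 -/- and so lacked a type IV collagen chain of the glomerular basement membrane. The 4 groups, WT-dim, AS-dim, WT-bright and AS-bright, had 3 libraries each, and the dim and bright libraries of a genotype came from the same 3 mice.

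Endothelial cells keep their identity through factors of several DNA-binding families acting together. Erg and Fli1 are ETS factors, which bind a GGAA core and switch on junction and receptor genes. Sox7, Sox17 and Sox18 form the SOXF group, known for arterial, venous and lymphatic vessel formation. Tal1 is a basic helix-loop-helix factor of blood and endothelial precursors, and Gata5 is a zinc finger factor of the GATA family. Tbx3 is a T-box factor and Meis2 a homeobox factor of the TALE class, both known in organ patterning. Ldb2 binds no DNA itself and joins LIM-domain proteins to DNA-bound factors. Fli1 and Tal1 are also known in blood cells, and Fli1 is expressed widely among leukocytes.

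Total counts on genes ranged from 11440169 to 15074909 a library, and levels are given as CPM, the counts scaled to a common library total, on which 1 CPM stood for more than 10 counts in each library. The labels were checked on Col4a5 and Tek. Col4a5 had 67.6, 37.1 and 73.9 CPM in the WT-dim libraries and 3.60, 1.99 and 1.36 in AS-dim, a log2 fold change of -4.71 (SE 0.49, adjusted p = 0.0180). In the bright libraries Col4a5 was low in both genotypes, at 4.92 to 9.996 CPM in WT and 3.13 to 6.79 in AS, and did not separate them. Tek averaged 15.8 ± 4.75 CPM (SD, n = 3) in WT-dim and 194 ± 70.2 in WT-bright, and 2.64 ± 0.37 in AS-dim and 256 ± 8.83 in AS-bright.

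The cell type label was checked on marker lists, by the summed CPM of a list in each library, scaled within its subpopulation. The 16 endothelial markers summed to 12610 to 20143 CPM in the bright libraries, to 863 to 1538 in WT-dim and to 271 to 356 in AS-dim. The 18 leukocyte markers summed to 58.8 to 155 CPM in the bright libraries, to 9018 to 15226 in WT-dim and to 16963 to 19439 in AS-dim, led by Coro1a and Lyz2. Leukocyte marker RNA was thus abundant in the dim libraries, which were labelled endothelial; these sums are not per length and give no share of cells. All 18 leukocyte markers were listed in dim, and in bright 5 of them, Cd3e, Cd3g, Itgam, Itgax and Nkg7, were not listed. The 13 proximal tubule markers summed to 7790, 1732 and 1672 CPM in the WT-dim libraries 1 to 3 and to 16.6 to 464 in AS-dim, and replicate 1 of WT-dim stood apart by this sum. In bulk libraries, fewer endothelial cells and less RNA per endothelial cell cannot be told apart.

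Promoter windows of the build GRCm38.p6 were found for 4 of the 10 members, Gata5, Meis2, Tal1 and Erg, in the RefSeq table used. They are shown for Gata5, which had the largest fold change of the 10 in AS mice between subpopulations and in dim between genotypes, and for Tal1 and Erg at the start of the gene. Each is the stretch before the transcription start, 5′ to 3′, without bases in annotated exons of the gene. Capitals mark a match, on either strand, to a short core motif. The core searched for ETS factors was GGAAG. The core searched for SOX factors was ACAAT. For GATA factors the search used AGATAA, and for the E-box that TAL1 binds with its partners it used CAGATG throughout.
Gata5 (chr2:180334700-180334929, minus strand): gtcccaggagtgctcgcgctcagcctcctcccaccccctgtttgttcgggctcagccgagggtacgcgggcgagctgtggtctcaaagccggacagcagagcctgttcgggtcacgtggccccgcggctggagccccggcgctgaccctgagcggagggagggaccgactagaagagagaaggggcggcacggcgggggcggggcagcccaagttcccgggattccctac
Tal1 (chr4:115056176-115056425, plus strand): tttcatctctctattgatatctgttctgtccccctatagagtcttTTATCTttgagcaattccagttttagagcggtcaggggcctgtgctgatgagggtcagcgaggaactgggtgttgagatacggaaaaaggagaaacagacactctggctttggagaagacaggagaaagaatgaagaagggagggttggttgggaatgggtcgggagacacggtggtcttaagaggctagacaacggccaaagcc
Erg (chr16:95586594-95586843, minus strand): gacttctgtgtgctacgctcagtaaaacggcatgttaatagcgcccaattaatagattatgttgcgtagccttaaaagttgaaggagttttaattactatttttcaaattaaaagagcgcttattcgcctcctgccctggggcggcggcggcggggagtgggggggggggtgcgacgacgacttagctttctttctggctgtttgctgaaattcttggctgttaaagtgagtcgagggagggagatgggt
The Tal1 window held 1 match to the GATA core, on the opposite strand, and that core was found in 9.99% of 32851 windows of 250 bases when either strand was counted. The windows of Gata5 and Erg shown held none of the 4 motifs searched. The shorter GGAA was not searched, so GGAA alone is left unmarked in all windows shown. The ETS core was found in 64.1% of all windows, the SOX core in 27.7% and the E-box in 14.4%. A later Tal1 start and 2 further Erg starts each held an ETS match, and 1 of these Erg starts also held a SOX and a GATA match. These matches describe letters in short windows and are not measured binding sites.

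Levels can be compared between genes only per length. The deposited lengths, on which the authors' RPKM (reads scaled by gene length and library total) rest, were close to the summed exons of all transcripts, and were 5.24 times the bases covered by exons for Erg, 3.59 times for Ldb2 and within 6 bases of them for Sox7, Sox18 and Gata5. The comparison between members was therefore made in CPM per kilobase of exon-covered bases (GRCm38, GENCODE M21). In WT-bright, Fli1 was highest at 170 ± 40.6 CPM per kilobase (SD, n = 3), then Sox7 at 106 ± 35.0, Meis2 at 74.8 ± 18.3 and Ldb2 at 72.8 ± 13.9. Each of these overlapped its neighbour in the order. Sox18, at 31.5 ± 18.7, lay below all 3 Ldb2 libraries and overlapped Sox17, Gata5 and Tbx3, at 26.9, 22.9 and 21.4. Tal1 was at 14.6 ± 0.46 and Erg, below all Tal1 libraries, at 10.01 ± 2.16. In AS-bright the order was Fli1 (236 ± 30.5), Sox7 (163 ± 16.7), Ldb2 (147 ± 5.58) and Meis2 (63.4 ± 8.52), and Ldb2 lay above Meis2 in every library. In the dim libraries Fli1 stood apart, at 101 ± 26.3 in WT and 118 ± 17.8 in AS, while the other 9 averaged 0.98 to 7.75 in WT and 0.072 to 1.57 in AS.

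**Figure D1:**
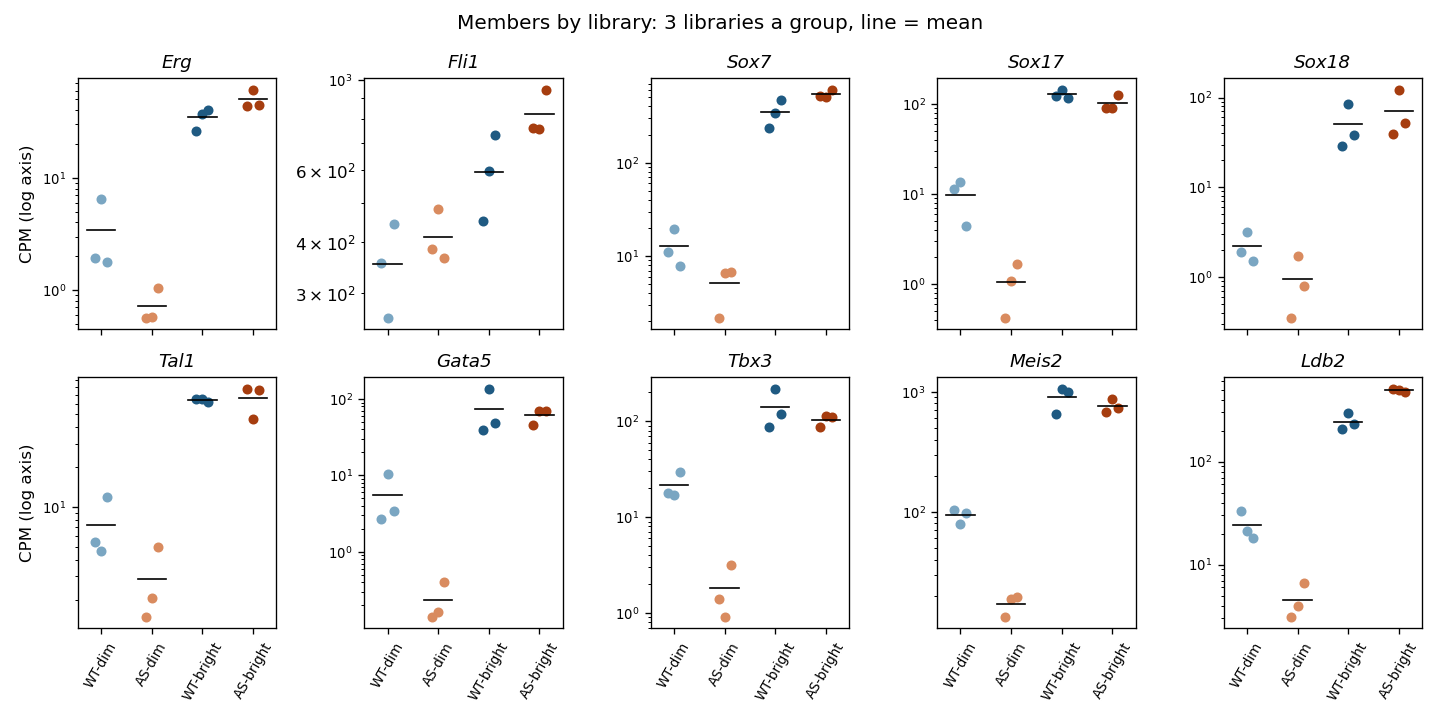
CPM of each member (log axis) in the 12 libraries of WT-dim, AS-dim, WT-bright and AS-bright, with a point per library and a line at the mean of 3. Every bright library lies above every dim library of its genotype for all 10 genes, by the least for Fli1 in WT, where 450 CPM in bright stands beside 444 in dim.

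The first comparison asked how the subpopulations differ within a genotype. In WT, 9 of the 10 members were higher in bright than in dim by the quasi-likelihood test of edgeR, with p adjusted by Benjamini-Hochberg over every gene tested and called under 0.05, against 12.2% of the 14247 genes tested. The groups did not overlap for all 10, against 20.2% of genes. In AS all 10 were higher in bright, against 26.8% of 14052 genes, and again none of the 10 overlapped, against 30.6%. The median log2 fold change of the members was 3.38 in WT and 6.15 in AS, where the median of all genes tested was -0.04 and 0.02. These comparisons use the same sort that separates Tek-driven reporter signal, and the endothelial markers moved with it: 15 of 16 tested were higher in WT (median 3.63) and 16 of 16 in AS (median 6.23). Leukocyte markers moved the other way: of 13 tested, 12 were lower in WT (median -7.92) and 13 in AS (median -7.63). Markers of other glomerular cells also differed. Of 8 mesangial and mural markers tested 3 were higher in WT (median 2.07) and 8 in AS (median 3.50). Of 8 podocyte markers 1 was higher and 4 lower in WT (median -1.60), and 5 were higher and 1 lower in AS (median 0.77). The part of these marker shifts in the member values was not tested.

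The 2 ETS members moved very differently between the subpopulations. Erg had 22, 77 and 21 counts in WT-dim, which were 1.93, 6.51 and 1.77 CPM, and 26.3, 37.3 and 40.6 CPM in WT-bright. Its 8, 7 and 13 counts in AS-dim were 0.57, 0.58 and 1.04 CPM, against 44.2, 61.0 and 44.8 in AS-bright. The log2 fold change of Erg, bright over dim, was 3.38 in WT (SE 0.59, adjusted p = 0.00454) and 6.08 in AS (SE 0.34, adjusted p = 1.33e-06). Fli1 was abundant in every library, at 356, 261 and 444 CPM in WT-dim, 450, 598 and 733 in WT-bright, 385, 481 and 365 in AS-dim, and 762, 759 and 945 in AS-bright. Its log2 fold change was 0.79 in WT (SE 0.28, adjusted p = 0.0794), which did not pass, and 0.99 in AS (SE 0.18, adjusted p = 0.00173). With the mouse as a block Fli1 passed in WT as well, at 0.80 (adjusted p = 0.0335). The leukocyte markers, which include genes of cells known to express Fli1, stood at the levels given above in dim, and their part in the Fli1 level was not tested.

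The SOXF genes were all low in dim and raised in bright. Sox7 had 10.96, 19.5 and 7.84 CPM in WT-dim and 237, 339 and 468 in WT-bright, and 2.19, 6.55 and 6.78 in AS-dim and 514, 502 and 603 in AS-bright. It had the largest log2 fold change among members in WT, 4.81 (SE 0.45, adjusted p = 0.000228), and rose by 6.70 in AS (SE 0.42, adjusted p = 2.52e-06). Sox17 had 11.3, 13.5 and 4.38 CPM in WT-dim, 123, 144 and 118 in WT-bright, 0.42, 1.08 and 1.68 in AS-dim and 90.3, 91.1 and 126 in AS-bright. Its values were close together in WT-bright, and the log2 fold changes were 3.77 in WT (SE 0.43) and 6.59 in AS (SE 0.42). Sox18 varied widely within bright, with 29.0, 85.5 and 38.6 CPM in WT and 39.1, 122 and 52.2 in AS, and 1 library of 3 stood above the others in each genotype. It rose by 4.55 in WT (SE 0.56) and 6.21 in AS (SE 0.65).

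Among the other DNA-binding members, Gata5 had the steepest difference in AS. Gata5 had 2.72, 10.5 and 3.46 CPM in WT-dim and 39.9, 136 and 49.0 in WT-bright, a log2 fold change of 3.78 (SE 0.70, adjusted p = 0.00581). In AS-dim it had 2, 2 and 5 counts (0.14, 0.17 and 0.40 CPM), of which 2 libraries were under 3 counts, and 45.5, 69.4 and 69.5 CPM in AS-bright, a log2 fold change of 7.98 (SE 0.41, adjusted p = 8.34e-07). Tal1 rose by 3.16 in WT (SE 0.43) and 4.53 in AS (SE 0.47), with 4.65 to 11.97 CPM in WT-dim, 61.6 to 65.2 in WT-bright, 1.48 to 5.03 in AS-dim and 46.0 to 77.6 in AS-bright. Tbx3 had the smallest rise of the 9 that passed in WT, 2.75 (SE 0.41), and rose by 5.80 in AS (SE 0.42). Meis2 rose by 3.31 in WT (SE 0.27) and 5.46 in AS (SE 0.24). Ldb2, the cofactor, rose by 3.38 in WT (SE 0.31) and 6.74 in AS (SE 0.31), from 3.11, 3.98 and 6.62 CPM in AS-dim to 508, 494 and 471 in AS-bright.

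**Figure D2:**
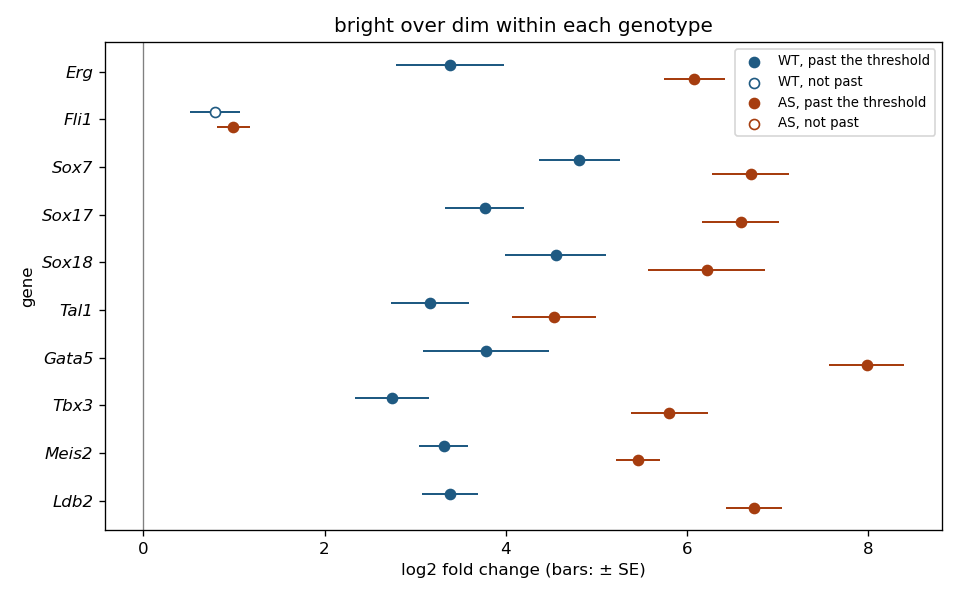
Log2 fold change of bright over dim for each member, in WT and in AS, with bars of 1 SE, filled where the adjusted p is under 0.05. The point of every gene except Fli1 lies above 2 in WT and above 4 in AS, and Fli1 lies at 0.79 and 0.99.

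The comparison of AS with WT within dim cells asked what the genotype changes there. Of the 10 members, 5 were lower in AS-dim (Gata5, Tbx3, Sox17, Meis2 and Ldb2), none was higher, and 5 did not pass, against 3.09% of 14637 genes tested that were lower. For 7 of the 10 all AS-dim libraries lay below all WT-dim libraries, against 16.3% of genes. The median log2 fold change over the members was -2.34, beside -0.02 over all genes tested. Of the 15 endothelial markers tested, 9 were lower and none was higher, with a median of -2.24. Among markers of other kidney cells, 3 of 8 podocyte markers were lower (median -1.37), 2 of 5 of the loop and distal tubule (median -3.25), 1 of 13 of the proximal tubule (median -4.24) and 0 of 7 mesangial and mural markers (median -1.09), and none of these was higher. Their part in the member values was not tested. Of the leukocyte markers 2 of 18 were higher and none lower (median 0.53).

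Gata5 fell by 4.54 on the log2 scale (SE 0.83, adjusted p = 0.0368), from 31, 124 and 41 counts in WT-dim to 2, 2 and 5 in AS-dim. Because so few counts remained, the summed counts, 196 against 9, were also compared directly, and their ratio after scaling by the TMM library sizes was 24.4 with an exact 95% Poisson interval of 12.6 to 54.2, which covers counting error only. Tbx3 had 18.1, 16.9 and 29.7 CPM in WT-dim and 1.41, 0.91 and 3.19 in AS-dim, a log2 fold change of -3.57 (SE 0.56, adjusted p = 0.0341). The groups did not overlap for either gene, and the lowest WT-dim library stood 6.81 times above the highest AS-dim library for Gata5 and 5.29 times for Tbx3.

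Sox17 fell by 3.23 on the log2 scale (SE 0.70), with an adjusted p of 0.0497 that lay just under the threshold. Meis2 was the most precisely measured of the 5, at 103, 78.8 and 98.1 CPM in WT-dim and 13.4, 18.7 and 19.6 in AS-dim, a log2 fold change of -2.47 (SE 0.25, adjusted p = 0.0180). Ldb2 fell by 2.43 on the log2 scale (SE 0.44, adjusted p = 0.0366), from 33.2, 21.0 and 18.04 CPM to 3.11, 3.98 and 6.62. Erg did not pass, at -2.24 (SE 0.72, adjusted p = 0.113), although its groups did not overlap, and 1 WT-dim library held 77 counts against 22 and 21 in the others. Sox7 (-1.34, SE 0.57), Tal1 (-1.39, SE 0.64) and Sox18 (-1.24, SE 0.71) did not pass, and Tal1 and Sox18 overlapped between the genotypes. Fli1 was the exception in sign, at 0.18 (SE 0.23, adjusted p = 0.681), with overlapping groups.

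The number of members called in dim rested on single libraries. Against 582 genes called in all with every library, 891 were called without WT-dim replicate 3, 71 without WT-dim replicate 1 and 408 without AS-dim replicate 2. The member count was 5 without WT-dim replicate 3, but 1 without WT-dim replicate 1, 2 without AS-dim replicate 2, and 0 without WT-dim replicate 2, AS-dim replicate 1 or AS-dim replicate 3. In these last 3 fits no gene at all was called, of 15282, 15358 and 15352 tested, so that count is not particular to the members. With a library left out, the log2 fold change ran from -2.62 to -2.34 for Meis2, -2.79 to -2.12 for Ldb2, -3.72 to -2.87 for Sox17, -4.22 to -3.28 for Tbx3 and -5.11 to -3.74 for Gata5. The leukocyte and proximal tubule marker sums differed between the genotypes in dim as given above, and with either list's score as a covariate no member passed, nor did any of the 14637 genes, so these fits leave their part in the member values not tested. With the leukocyte score the log2 fold change was -1.28 for Sox17, -1.07 for Ldb2, -2.12 for Meis2, -3.83 for Tbx3 and -4.72 for Gata5. With the proximal tubule score it was -3.29 for Sox17, -2.46 for Ldb2, -2.27 for Meis2, -5.31 for Tbx3 and -6.32 for Gata5.

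The same comparison in bright cells gave no member past the threshold. Nor did any other gene pass in bright, 0% of 14396 tested, while 2906 had an unadjusted p under 0.05, and DESeq2 called 1117. Without AS-bright replicate 2, 405 genes were called, and 116 without WT-bright replicate 1. With the leukocyte score as a covariate 586 were called. None of these fits called a member. For 4 members, Erg, Fli1, Sox7 and Ldb2, every AS-bright library lay above every WT-bright library, against 15.1% of genes. Ldb2 had the smallest p of the 10, with 205, 294 and 229 CPM in WT-bright and 508, 494 and 471 in AS-bright, a log2 fold change of 0.95 (SE 0.20, adjusted p = 0.0754). Ldb2 passed with DESeq2 (adjusted p = 0.00122) and with edgeR's likelihood ratio test (adjusted p = 0.00491). The log2 fold changes of the other 9 ran from -0.51 for Tbx3 (SE 0.31) to 0.57 for Sox7 (SE 0.25), with a median over all 10 of 0.19. No marker passed in bright either. The median was 0.32 over 16 endothelial markers (13 positive), 0.996 over 8 podocyte markers (7 positive), -2.60 over 13 proximal tubule markers (0 positive) and -2.71 over 7 loop and distal tubule markers (0 positive), and their part in the member values was not tested.

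**Figure D3:**
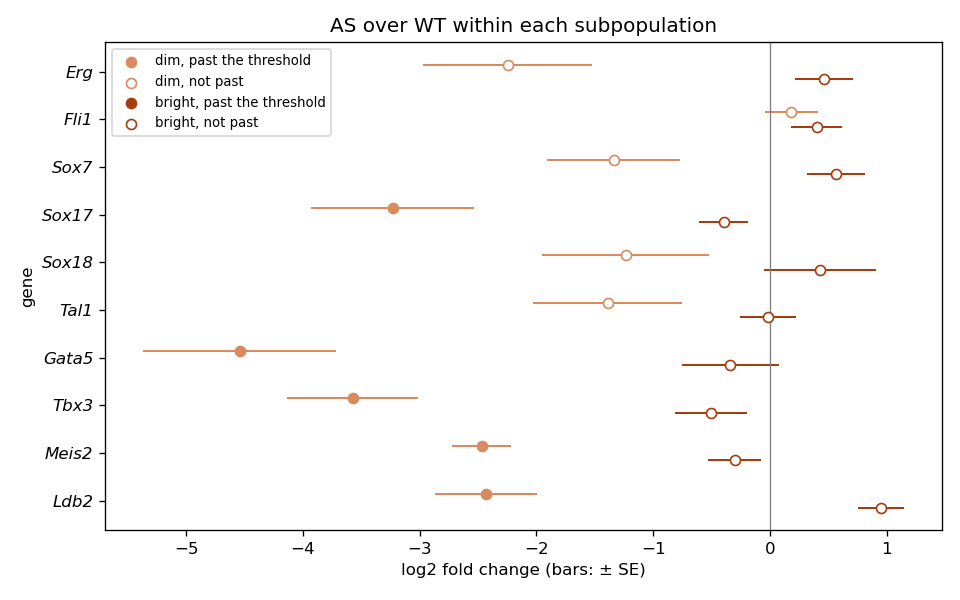
Log2 fold change of AS over WT for each member, in dim and in bright cells, with bars of 1 SE, filled where the adjusted p is under 0.05. In dim 9 of 10 points lie below 0, with Gata5 at -4.54, and in bright all lie between -0.51 and 0.95.

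Whether the genotype difference itself differed between the subpopulations was tested by the interaction in a fit of all 12 libraries. For 5 members the log2 fold change of AS over WT was higher in bright than in dim, Gata5 by 4.23 (SE 0.93, adjusted p = 0.0302), Ldb2 by 3.41 (SE 0.42, adjusted p = 0.00460), Tbx3 by 3.10 (SE 0.61, adjusted p = 0.0188), Sox17 by 2.88 (SE 0.61, adjusted p = 0.0272) and Meis2 by 2.20 (SE 0.33, adjusted p = 0.00622). That compares with 2.43% of 15084 genes tested. The same 5 genes were those lower in AS-dim, and the dim libraries are shared by both tests. Erg lay just outside the threshold, at 2.74 (SE 0.68, adjusted p = 0.0513). Over the members the median was 2.47, beside 0.13 over all genes and 2.55 over the endothelial markers, of which 9 of 16 were higher. The podocyte markers had a median of 2.18, with 5 of 8 higher, the proximal tubule markers 1.71, with 0 of 13, and the mesangial and mural markers 1.59, with 0 of 8.

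The interaction counts also depended on libraries. They were 2 without WT-bright replicate 3 or AS-dim replicate 1, and 3 without WT-bright replicate 1, AS-dim replicate 2 or any 1 of the 3 AS-bright libraries. The calls over all genes fell in these fits too, from 449 to 247 and 252 in the first 2 and to 203 to 383 in the other 5. Without AS-dim replicate 3 the calls over all genes fell to 310 while the member count stayed at 5. Whether the members fell more than all genes was not tested. Ldb2 and Meis2 passed under all 22 alternatives, with adjusted p up to 0.0180 and 0.0210. Sox17, Gata5 and Tbx3 did not pass under 8, 7 and 2 of them.

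The members were then expressed relative to the 16 endothelial markers of the same library, as log2 of the member's CPM over the geometric mean CPM of the list. That mean was 40.0 CPM in WT-dim, 9.71 in AS-dim, 414 in WT-bright and 571 in AS-bright. The median difference over the 10 members was -0.22 for AS over WT in dim, -0.23 in bright, 0.07 for bright over dim in WT and 0.35 in AS. With 3 libraries against 3 an exact two-sided permutation test cannot give a p under 0.1, and after adjustment over the 40 relative values the smallest was 0.235, so none passed.

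On this scale a gene at the same CPM in both groups shifts against the list mean, so the share of all 15084 genes is given beside each count of members without overlap. Within dim, 3 members lay lower in AS, Gata5 (-2.46), Tbx3 (-1.71) and Sox17 (-1.26), against 1.48% of genes, and 1 lay higher, Fli1 (2.23), as did 72.4% of genes. In bright, 4 lay lower in AS, Tbx3 (-0.83), Sox17 (-0.81), Meis2 (-0.69) and Tal1 (-0.45), against 24.8% of genes, and Tal1 itself had an AS over WT log2 fold change of -0.02 in the fit. Ldb2 lay higher in AS-bright by 0.56, against 4.22% of genes. In WT, Fli1 lay lower in bright than in dim (-2.66), as did 85.7% of genes, and Sox7 (1.41) and Sox18 (1.03) lay higher, against 0.557%. In AS, Fli1 (-4.87) and Tal1 (-1.18) lay lower in bright, as did 92.2% of genes, and Gata5 (2.28), Sox7 (0.99) and Ldb2 (0.94) lay higher, against 0.689%. The group means of Erg moved little against the list, with differences from -0.01 to 0.27 in the 4 comparisons. Its single libraries spread more, from -4.48 to -2.96 in WT-dim.

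**Figure D4:**
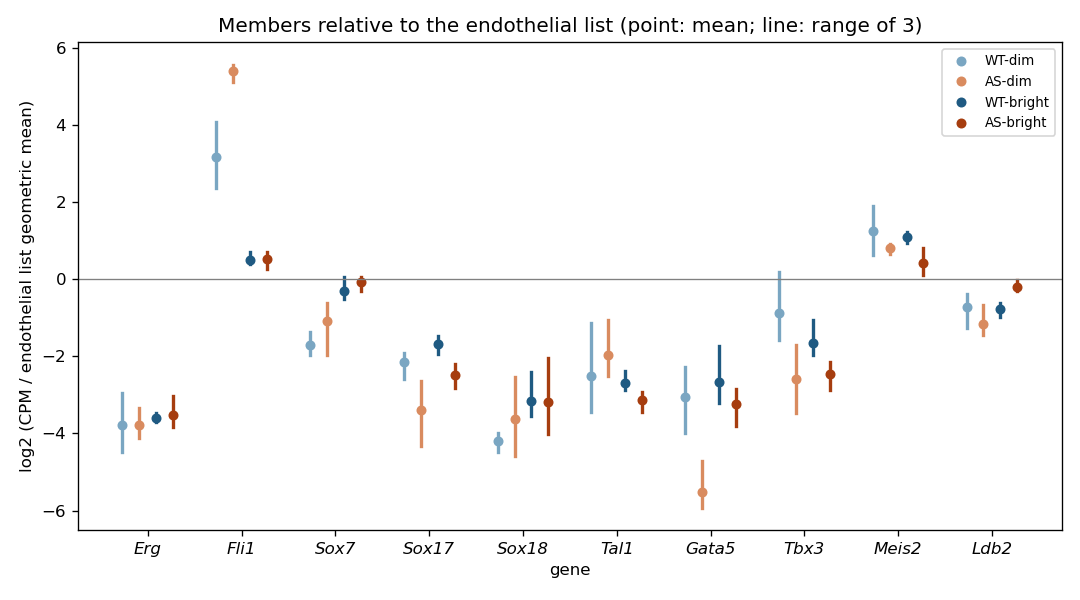
Log2 of each member's CPM over the geometric mean CPM of 16 endothelial markers, with the mean and range of 3 libraries in each group. Fli1 stands at 3.16 in WT-dim and 5.40 in AS-dim against 0.51 and 0.52 in the bright groups, and Gata5 in AS-dim is lowest, at -5.52.

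Genes related to the members by family were read from lists of 78 genes in all. In dim, 5 of 56 tested were lower in AS and none higher, with a median of 0.01. The 4 other endothelial factors that fell included Epas1, the hypoxia-inducible factor 2 alpha gene (-2.37, adjusted p = 0.0180), Hoxd8 (-3.67, adjusted p = 0.0339) and Foxc2 (-2.85, adjusted p = 0.0366). None of 13 ETS factors tested passed, with a median of 0.22, and none of 13 genes of the LIM-domain-binding and TAL1 complex, with a median of 0.41. None of 4 other SOX factors passed, with a median of -2.04, nor did the GATA factors Gata2 and Gata3 or the T-box factor Tbx2.

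Bright over dim, 17 of 60 related genes were higher and 7 lower in WT, and 39 of 61 higher and 10 lower in AS. Over all genes, 10.2% were lower in WT and 25.0% in AS, beside the shares that were higher given above. Elk3, an ETS factor of endothelium, rose by 3.05 in WT and 3.08 in AS, and Lmo2, a LIM-domain partner of Tal1, rose by 2.37 and 2.38. Spi1, the ETS factor of myeloid and B cells, fell by 7.54 and 6.70, and Runx1, of blood cells, fell by 4.17 and 4.65. Epas1 rose by 3.11 and 5.10, and Tgif1, a TALE factor, fell by 4.53 in WT and fell by 5.02 in AS. Sox13 rose by 3.35 and 4.74, and Gata2 by 2.90 and 1.80. Tbx2 was higher in AS (2.95, adjusted p = 0.00184) and did not pass in WT (0.95, adjusted p = 0.123). In bright cells none of 63 related genes passed for AS over WT, and in the interaction 5 of 62 were higher and 1, Cbfa2t3, lower, against 0.544% of genes lower.

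**Figure D5:**
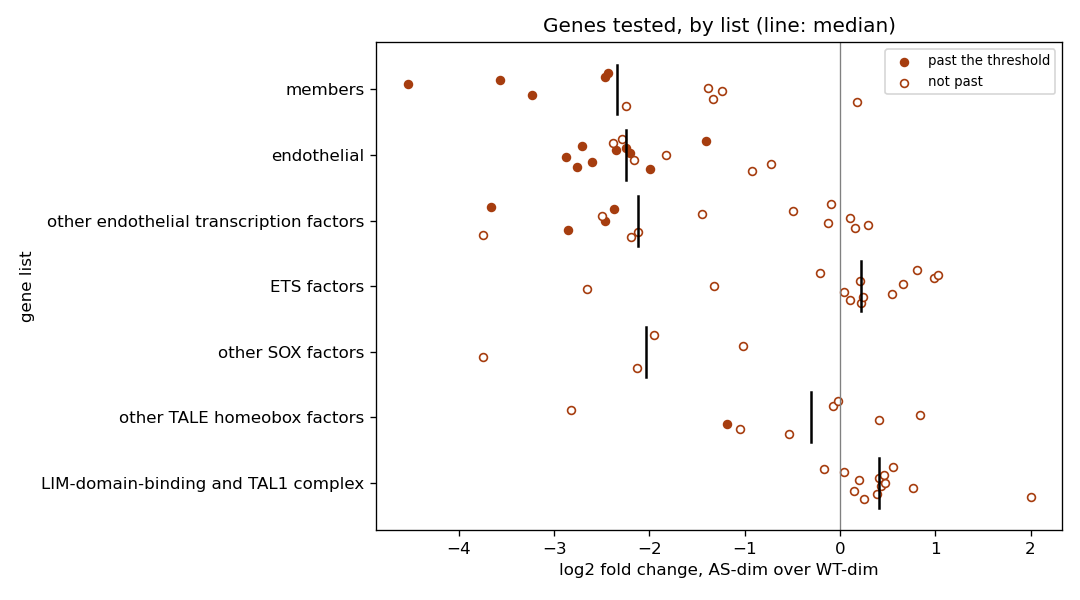
Log2 fold change of AS-dim over WT-dim for each gene tested in 7 lists, with a line at the list's median, filled where the adjusted p is under 0.05. The members (median -2.34), the endothelial markers (-2.24), the other endothelial factors (-2.12) and the 4 other SOX factors (-2.04) lie to the left. The ETS list (0.22), the LIM-domain-binding list (0.41) and the other TALE factors (-0.30) lie near 0.

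The genes most like a member over the 12 libraries were found by the mean absolute difference of centred log2(CPM + 1), among the other genes tested in the interaction fit. Meis2 was nearest to Sema6a (0.17), Epas1 (0.21) and Nfib (0.22), and Tbx3 to Zfp532 (0.27), Sema6a (0.28) and Epas1 (0.35). Sox17 was nearest to Ntn4 (0.19), Ccm2l (0.23) and Dlc1 (0.25), and Gata5 to Fgd5 (0.26), Dlc1 (0.27) and Efnb2 (0.32). Sox7 was nearest to Cdh5 (0.33), the endothelial cadherin, with Hbegf and Adgrf5 next, and Ldb2 to Adamts1, Eng and Ptprg (0.23 to 0.26). Erg was nearest to Kif26a, Timeless and F2r (0.21 to 0.25), Sox18 to Tmtc2, Pcdh17 and Hecw2 (0.37 to 0.40), and Tal1 to Ccdc184, Ica1 and Upp1 (0.27 to 0.31). Fli1 was nearest to Slc39a9, Srf and Kcmf1 (0.14 each). Among the members themselves the closest pair was Sox17 and Meis2 (0.34) and the most distant was Fli1 and Sox7 (2.38). All of these points share libraries and depth, and they describe likeness of pattern in these 12 libraries alone.

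The members lie on GRCm38 as protein-coding genes, Erg on chromosome 16 from 95359169 to 95586593, Fli1 on 9 from 32422204 to 32542861, Sox7 on 14 from 63943673 to 63950732, Sox17 on 1 from 4490931 to 4497354 and Sox18 on 2 from 181669836 to 181671640. Tal1 lies on chromosome 4 from 115056426 to 115071755, Gata5 on 2 from 180325133 to 180334699, Tbx3 on 5 from 119670669 to 119684724, Meis2 on 2 from 115863064 to 116065839 and Ldb2 on 5 from 44472132 to 44799680. Antisense genes share exon bases with 3 of them, Gm37587 with 804 of 4772 bases of Sox17, Gata5os with 258 of 3277 of Gata5 and Tbx3os1 with 115 of 6624 of Tbx3. The kit keeps strand but the counted strand is not given in the sources used here, so reads there may not be told apart. Tbx3os1 had 11 to 30 counts in WT-dim and 3 to 8 in AS-dim, and 106 to 289 in WT-bright and 43 to 107 in AS-bright, and Gm37587 and Gata5os had at most 21 and 34 counts in any bright library.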

How the data were processed

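Poly-A RNA of sorted cells was sequenced in 12 libraries. Per the labels and methods, reads were aligned to GRCm38.p5 with STAR 2.6.0c and counted per Gencode gene, and the authors deposited whole-number counts for each subpopulation. The deposited RPKM of the authors, scaled by a listed gene length and the library total, were used only to read that length. Deposited columns of the authors' own fold changes, likelihood ratios and p-values were not used.

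Counts, without spike-ins (0.0286% to 0.282% of counts), were tested with edgeR 4.0.16 in R 4.3.3: filterByExpr, TMM, estimateDisp, glmQLFit with its default settings of this version (the legacy fit) and glmQLFTest, with Benjamini-Hochberg adjustment over all genes and a threshold of 0.05. Scripts were tested on simulated data. SE is the log2 fold change over the square root of F. CPM come from the 12-library fit, except the summed CPM of the marker lists. Those sums were scaled by TMM within each subpopulation's own counts. A symbol with 2 identifiers (Itgam) was read from the more abundant. Replicates differed by more than counting error (chi-square over its degrees of freedom, 29.5 to 104 a pair). Labels give the mouse of each library. Deviations of the dim and bright libraries of a mouse correlated at 0.111 to 0.329 in WT and 0.0760 to 0.374 in AS, and those of different mice at -0.259 to 0.0422 and -0.274 to 0.195, so in AS the ranges overlapped. Genes named were all members, Col4a5, Tek, and, of each list, at most 3 of smallest p, with the 3 genes most like each member. The values of 1 related gene are not reported here.

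Members and lists were chosen with earlier results of these data known. After the default fit, its counts of called genes were seen to differ from those of an earlier analysis; edgeR's version 4 fit, robust estimation and both together were then run and are given as alternatives, and the default fit was kept. Alternatives were RLE and unscaled libraries, other filters, DESeq2 1.42.0, the likelihood ratio test, the replicate block, covariates, one fit of 12 libraries and each library left out. P-values of AS over WT within a subpopulation measure the spread between 3 mice a genotype. In the main bright over dim and interaction fits, the dim and bright libraries of a mouse were treated as independent. Their p-values ignore that pairing, which only the replicate block used.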

Additional observations from a re-analysis of the deposited data

Results flagged for a closer look

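For 5 members the genotype difference was not the same in the subpopulations, by the interaction in the fit of all 12 libraries with edgeR's quasi-likelihood test. The AS over WT log2 fold change was higher in bright than in dim by 4.23 for Gata5 (adjusted p = 0.0302), 3.41 for Ldb2 (adjusted p = 0.00460), 3.10 for Tbx3 (adjusted p = 0.0188), 2.88 for Sox17 (adjusted p = 0.0272) and 2.20 for Meis2 (adjusted p = 0.00622). In bright Gata5, Tbx3, Sox17 and Meis2 had log2 fold changes of -0.34, -0.51, -0.40 and -0.30, and Ldb2 of 0.95. Over all 15084 genes tested 2.43% were higher. Sox17, Gata5 and Tbx3 did not pass under 8, 7 and 2 of 22 alternatives. The number of members past the threshold fell to 2 without WT-bright replicate 3 or AS-dim replicate 1, where the calls over all genes fell from 449 to 247 and 252. The endothelial markers had a median interaction of 2.55, with 9 of 16 past the threshold. No formal test for a single library that stands apart was applied, since each group had 3.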

How the results depend on the processing

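The counts of members higher in bright than in dim were 9 or 10 in WT and 10 in AS under all 17 alternatives of each. In dim, AS over WT, the count of 5 became 0 with the replicate block, which pairs different mice there and shares only a number, 0 with the proximal tubule or the leukocyte score as a covariate, and 0 to 5 with a library left out; the block and both covariates called 0 of all 14637 genes, and 3 of the fits with a library left out also called no gene. Other settings gave 4 to 6. In bright, the count of 0 became 1 (Ldb2) with DESeq2 and with the likelihood ratio test, and stayed at 0 with each library left out (0 to 0). The interaction count of 5 ranged from 2 to 6 with a library left out and was 5 to 7 otherwise, 7 with DESeq2 and the likelihood ratio test. In the pairing by mouse, the replicate block gave 10 in WT, 10 in AS and 5 in the interaction.

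In dim, 4 calls were made with unscaled libraries and with every gene with a count. The version 4 fit, chosen after seeing the data, called 1263 genes in dim where the default called 582, and 65 in bright where the default called 0; robust estimation called 534 and 54, and both together 1236 and 152. The members called numbered 5, 4 and 5 in dim, 0 in bright, and 5, 5 and 6 in the interaction. DESeq2 called 2213 genes in dim and 1186 in the interaction, where the default called 449; the likelihood ratio test called 1946, 827 and 1114 in dim, bright and the interaction, and the fit of all 12 libraries 1541 in dim. Without scaling, the median interaction of all genes moved from 0.13 to -0.03.

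Of 939 values of single members, 858 kept direction and side of the threshold, 57 lost the threshold, 14 gained it and 10 changed sign. These 10 had not passed in either setting: Fli1 in dim without WT-dim replicate 2 (-0.0346) and with the leukocyte score (-0.0408), and in bright Tal1 with every gene with a count (0.00428), without WT-bright replicate 1 (0.03) or AS-bright replicate 2 (0.20), in 1 fit of 12 libraries (0.0592) and with the leukocyte score (0.17), Gata5 without WT-bright replicate 2 (0.38) and with the leukocyte score (0.19), and Sox18 without AS-bright replicate 2 (-0.21). With a library left out these ranged from -0.0346 to 0.37 for Fli1 in dim, and in bright from -0.15 to 0.20 for Tal1, -0.62 to 0.38 for Gata5 and -0.21 to 0.99 for Sox18. The cause was not tested. The relative medians ranged with a library left out from -0.37 to -0.10 in dim, -0.44 to -0.06 in bright, -0.12 to 0.20 in WT and -0.00306 to 0.64 in AS.

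Gata5 in AS-dim rested on 9 counts in all, and Erg on 28, so their dim levels have little depth. Leaving out a library leaves an arm with 2.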
